A study of Mus musculus with 8 samples.

Results

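Calcium and magnesium leave the tubule fluid of the kidney by 2 kinds of route, between cells through claudin pores and across cells through channels. A set of 10 genes of these routes were examined in whole kidneys with and without salt-inducible kinase (SIK) deletion: the claudins *Cldn16*, *Cldn19*, *Cldn10*, *Cldn2* and *Cldn14*, the magnesium channels *Trpm6* and *Trpm7*, the magnesium regulator *Cnnm2*, and *Egf* and *Umod*, which encode epidermal growth factor and uromodulin. The list was drawn up by name, with earlier results of these data known, and all 10 were found by gene identifier among the 55401 genes of each file. RNA-Seq was done on 8 kidneys, 4 per group, and SIKs are kinases that parathyroid hormone (PTH) switches off. The study measured blood, urine and bone in such mice, and used RNA-Seq to ask how kidney SIK loss alters the whole transcriptome. PTH acts on calcium reabsorption along the distal tubule, and the paper proposes that SIKs may not take part in this directly. The 10 genes here are mainly those of claudin pores and magnesium transport.

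Per the labels, the 4 control kidneys came from mice with floxed alleles, that is alleles flanked by loxP sites, of *Sik1*, *Sik2* and *Sik3* and no Cre recombinase. The 4 mutant kidneys carried the same floxed alleles plus Six2-Cre, so the floxed alleles themselves were shared by both groups. The study's text describes mutants in which 1 *Sik1* allele was floxed, whereas the labels name both alleles, and the group is therefore called SIK mutant. Six2-Cre is active in nephron progenitors and recombines in the tubule and podocyte cells that descend from them, not in vessels, stroma or blood cells. The collecting duct has another origin. The labels give neither age nor sex. Nothing in them says more of the replicates than that each is a separately numbered kidney, so p values measure the spread between these samples.

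Claudins 16 and 19 together form the paracellular pore through which calcium and magnesium are reabsorbed in the thick ascending limb of the loop of Henle. Claudin-14 is an inhibitor of that pore and is induced when the calcium-sensing receptor is active. Claudin-10b gives the same limb a sodium pore, and claudin-2 is a cation and water pore of the proximal tubule. TRPM6 is the luminal magnesium channel of the distal convoluted tubule, EGF is made in the same region and stimulates it, and uromodulin is the main protein secreted by the thick ascending limb.

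The stretches of DNA upstream of the genes at which the values below turn are shown here, read in the direction of transcription and ending at the base before the RefSeq transcript start. For *Trpm6* the stretch is chr19:18749480-18749729 on the plus strand of GRCm38.p6, for *Cldn16* chr16:26462885-26463134 on the plus strand, and for *Cldn14* chr16:94008838-94009087 on the minus strand. *Trpm6* and *Cldn16* are shown because their values differed most between genotypes, and *Cldn14* because it was nearly silent and holds the short site TGACG of CREB, a factor whose coactivators SIKs restrain. Capitals mark that site on either strand.
Trpm6: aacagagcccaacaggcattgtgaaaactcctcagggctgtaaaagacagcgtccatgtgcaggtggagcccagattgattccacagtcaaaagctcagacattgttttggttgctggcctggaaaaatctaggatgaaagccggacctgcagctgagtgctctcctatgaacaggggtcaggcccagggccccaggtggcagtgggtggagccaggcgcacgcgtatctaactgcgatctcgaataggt
Cldn16: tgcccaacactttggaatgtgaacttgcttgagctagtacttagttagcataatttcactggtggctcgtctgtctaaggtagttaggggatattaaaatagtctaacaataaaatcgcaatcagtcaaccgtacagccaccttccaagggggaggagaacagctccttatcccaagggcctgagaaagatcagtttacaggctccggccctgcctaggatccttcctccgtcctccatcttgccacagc
Cldn14: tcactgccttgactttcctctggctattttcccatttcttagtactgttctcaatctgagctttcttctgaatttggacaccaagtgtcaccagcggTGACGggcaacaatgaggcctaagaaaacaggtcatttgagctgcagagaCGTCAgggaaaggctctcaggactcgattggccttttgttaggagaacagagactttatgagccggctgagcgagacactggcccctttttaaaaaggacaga
The search covered 4 motifs on both strands of 32851 mouse promoters from RefSeq, each reaching 250 bases before and 50 after a start. The full CREB site TGACGTCA was in 1.79% of them and in 0 of the 15 promoters of the 10 genes. TGACG, which is part of the full site, was in 20.8% and in 3 of the 15, from *Cldn14* and *Trpm7*. In the first *Cldn14* promoter it began 153 and 103 bases before the start, and in *Trpm7* it lay after the start. GTTAAT, a site of the tubule factor HNF1, was in 7.10% of promoters and in 3 of the 15, 15 bases before the *Cldn10* start, 202 before the *Umod* start and 6 before another *Cldn14* start. The estrogen-related receptor site TCAAGGTCA was in 0.423% of promoters and in 0 of the 15. A match is only a match of letters, and binding was not measured here.

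Depth was 10179648 to 10925100 expected counts per kidney, and 3 counts, the limit below which a gene is called not detected here, equalled 0.263 to 0.304 CPM (counts scaled to a fixed library total). *Sik3* CPM averaged 62.9 ± 3.79 in controls and 39.5 ± 4.10 in mutants (SD, n = 4 each) without overlap, with an edgeR false discovery rate (FDR) of 0.0697. Neither of the other 2 targeted genes fell without overlap. *Sik2* averaged 9.14 ± 0.841 and 6.72 ± 2.07 CPM with overlap (edgeR FDR 0.794), and 3 of 4 mutants lay under the lowest control. *Sik1* was higher in all 4 mutants than in all 4 controls, at 40.8 ± 2.84 and 50.6 ± 4.85 CPM (edgeR FDR 0.601). A fall in whole-kidney transcript without overlap was thus seen for *Sik3* alone, which does not measure deletion within the recombined cells. The paper reports partial deletion in whole kidney, which includes cells that lack Six2-Cre activity. In sorted cells of the Cre lineage it reports nearly complete deletion of *Sik2* and *Sik3*. Controls 3 and 4 stood apart. They held 0 and 0.175 CPM of 4 summed Y-linked genes, against 76.8 to 94.9 CPM in the other 6 kidneys, so all mutants belonged to the class of controls 1 and 2. Controls 1 and 2 in turn held 22.3 and 29.9 CPM of 7 summed adipocyte genes, against 67.1 to 262 CPM in the rest. The difference of each of the 9 tested genes is therefore given for all 8 kidneys and for the 6 with Y-linked reads (2 controls and 4 mutants), and values called those of the 6 kidneys below are from the latter. In those 6, the adipocyte sum was 22.3 and 29.9 CPM in the controls and 166 to 262 CPM in the mutants. Genotype and adipocyte content therefore cannot be told apart in any value of the 6 kidneys.

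Among the 10 genes, 9 passed the filter on low counts and *Cldn14* did not. With edgeR's quasi-likelihood test over 14326 genes, 0 of the 9 had an FDR under 0.05, as was true of 0.0% of all genes. An unadjusted p under 0.05 was reached by 2 of the 9, *Trpm6* with lower and *Cldn16* with higher values in mutants, against 6.36% of all genes (2.76% higher, 3.59% lower). Only *Trpm6* had control and mutant kidneys that did not overlap in CPM, which held for 4.03% of all genes, and 2.39% had all mutants under all controls. The median log2 fold change of the 9 was -0.01, and that of all tested genes was 0.00 to 2 decimals. In the 6 kidneys with Y-linked reads, 0 of the 9 passed the FDR (0.143% of all genes), while 3 had an unadjusted p under 0.05, *Trpm6* lower and *Cldn16* and *Cldn19* higher, against 11.1% of all genes. Here 5 of the 9 did not overlap, 3 with all mutants under and 2 with all mutants above both controls, but with 2 controls the same held for 21.8% of all genes (11.7% under, 10.1% above). A Y-linked covariate in the fit of all 8 kidneys left 0 past the FDR (0.105% of all genes) and 4 of the 9 at an unadjusted p under 0.05 (12.1%).

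**Figure D1:**
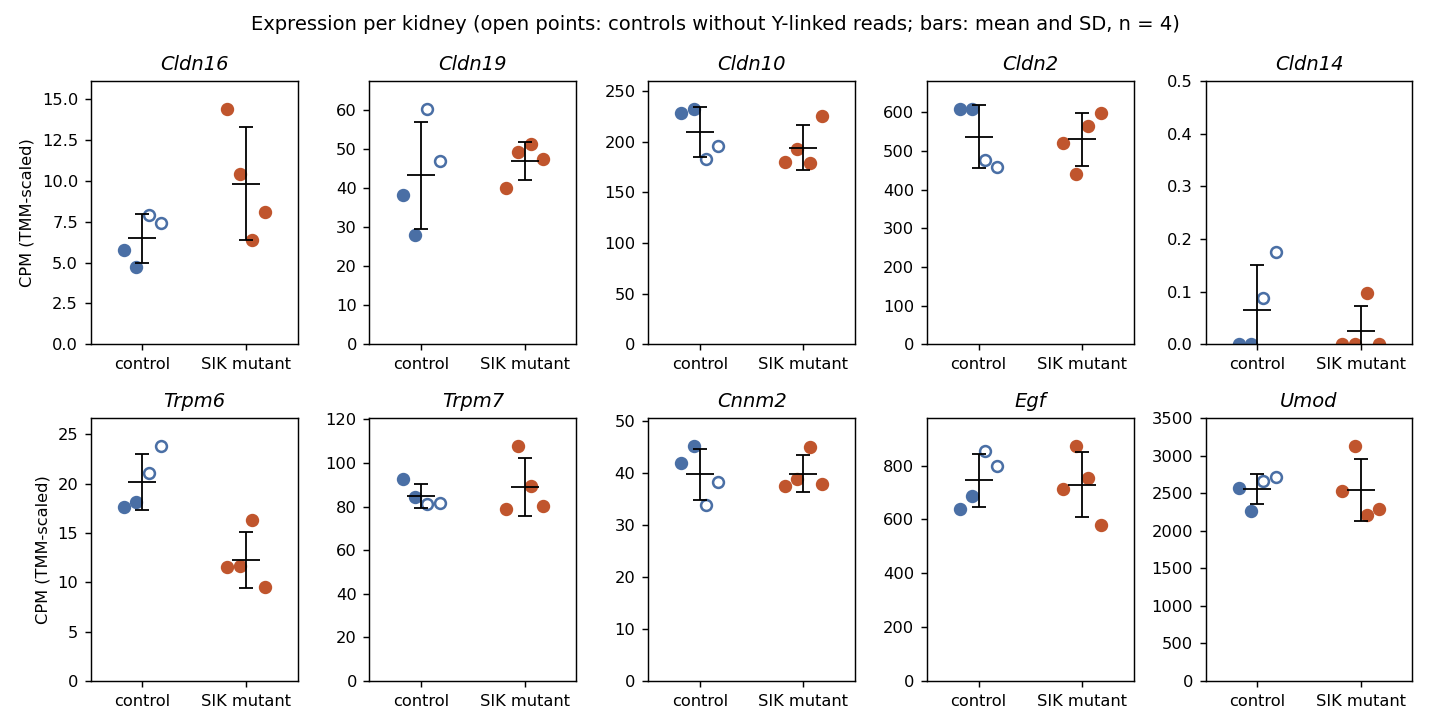
Expression of the 10 genes in each kidney. The y axes show CPM scaled with TMM factors and start at 0, each point is a kidney, open points are the 2 controls without Y-linked reads, and bars are mean and SD of 4 kidneys. *Trpm6* is the gene in which all 4 mutants (9.53 to 16.3 CPM) lie under all 4 controls (17.7 to 23.8 CPM), and *Cldn14* never exceeds 0.175 CPM.

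*Trpm6*, the channel for regulated magnesium uptake in the distal convoluted tubule (chr19:18749983-18892511, GRCm38 here and for all genes below, plus strand), was the gene with the largest difference. Its CPM was 17.7, 18.2, 21.05 and 23.8 in controls 1 to 4, and 11.6, 11.7, 16.3 and 9.53 in mutants 1 to 4. All mutants were thus below all controls, with means of 20.2 ± 2.85 and 12.3 ± 2.85 (SD, n = 4 each), a decrease of 39.3% by edgeR's fit. The log2 fold change was -0.72 ± 0.171 (SE), with a 95% interval of -1.10 to -0.34, an unadjusted edgeR p of 0.00196 and an FDR of 0.434. DESeq2 gave an FDR of 0.0499 on the same counts, with 67 genes called (0.468%), but in the 6 kidneys, an alternative chosen after seeing the data, its FDR was 0.416, so the call depended on the tool and on the kidneys. A 2-sided exact permutation test of CPM gave p = 0.0286, the smallest that 70 assignments allow. Restricted to the kidneys with Y-linked reads, the fit gave -0.54 ± 0.198 (SE) with an unadjusted edgeR p of 0.025 and an FDR of 0.381. The 2 controls without Y-linked reads were the 2 highest, at a mean of 22.4 CPM, against 17.9 in the other 2. On the TPM scale, where length and library composition enter, the groups overlapped, at 2.61 to 4.13 TPM in controls and 1.5 to 2.92 in mutants. Mutant 3, at 2.92 TPM, lay above controls 1 and 2, at 2.61 and 2.79.

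In bulk tissue, fewer cells of a type and less RNA per cell cannot be told apart. Distal convoluted tubule markers (*Slc12a3*, the thiazide-sensitive cotransporter, and *Pvalb*) summed to 643 to 1066 CPM in controls and 502 to 778 in mutants. *Slc12a3* alone had a log2 fold change of -0.28 (edgeR FDR 0.863) and of -0.03 in the 6 kidneys. *Pvalb* ran from 16.3 to 81.4 CPM over the 8 kidneys, with a log2 fold change of -0.54 ± 0.442 (SE). In the 6 kidneys that change was -0.68 ± 0.539 (SE). The ratios below are to the mean of both log2 values, so the wide spread of *Pvalb* weighs as much as *Slc12a3*. A ratio to *Slc12a3* alone was not computed. Relative to these markers, *Trpm6* differed by -0.29 on the log2 TPM scale, mutant minus control, with overlapping groups and p = 0.286 in an exact permutation test (0.686 after Benjamini-Hochberg adjustment over 8 such ratios). The difference was -0.22 in the 6 kidneys, -0.14 with a pseudocount of 1 and -0.13 without mutant 1. *Cnnm2* and *Egf* relative to the same markers differed by 0.41 and 0.33, with exact permutation p of 0.171 and 0.343, and by 0.19 and 0.41 in the 6 kidneys. Without mutant 4 the *Cnnm2* value was 0.20, and without control 1 or mutant 2 the *Egf* value was 0.19 or 0.13. The part of the segment's share in the *Trpm6* difference was otherwise not tested.

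*Trpm7* (chr2:126791565-126876230, minus strand) encodes the related channel that most cell types carry. Its CPM was 92.9, 84.3, 81.2 and 81.4 in controls and 79.1, 108, 89.5 and 80.2 in mutants. Mutants 1, 3 and 4 lay among or next to the controls and mutant 2 was higher, which gave means of 84.9 ± 5.47 and 89.2 ± 13.3 (SD, n = 4 each). The fitted log2 difference was 0.07, with a 95% interval of -0.18 to 0.32 (edgeR FDR 0.947), and 0.02 in the 6 kidneys. Mutant 2 also had the longest abundance-weighted *Trpm7* transcript length, 6353 bases against 4221 to 5175 in the other kidneys, so its transcript mixture as estimated differed too. *Trpm6* TPM divided by *Trpm7* TPM was 0.147, 0.156, 0.205 and 0.200 in controls and 0.109, 0.106, 0.133 and 0.0757 in mutants. The ratio of the pair, which does not depend on library scaling, was thus lower in all mutants than in all controls.

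*Cnnm2* (chr19:46761596-46880192, plus strand), which encodes a basolateral magnesium regulator, had 41.9, 45.2, 33.8 and 38.3 CPM in controls and 37.5, 38.9, 45.1 and 38.0 in mutants. No mutant value left the span of the controls. The fitted change in log2 was 0.00 to 2 decimals, with a 95% interval of -0.24 to 0.25 (edgeR FDR 0.998), and -0.12 in the 6 kidneys. Of 21 other magnesium genes, 20 were tested, and 0 passed the FDR while 4 had lower values at an unadjusted p under 0.05 and 0 had higher ones, against 3.59% and 2.76% of all genes. The 4 were *Cnnm4*, a relative of *Cnnm2* (log2 fold change -0.38, edgeR FDR 0.702), *Pcbd1*, a cofactor of HNF1 (-0.29, FDR 0.754), *Fxyd2*, the gamma subunit of the sodium pump (-0.30, FDR 0.754), and *Cnnm3* (-0.20, FDR 0.757). The last 2 were named after their values were seen. In the 6 kidneys 2 were lower at that p, *Fxyd2* and *Pcbd1*, and 0 were higher, against 4.74% and 6.4% of all genes. *Ptp4a2* and *Ptp4a1*, whose phosphatases bind CNNM proteins, had log2 fold changes of 0.13 and 0.12 (edgeR FDR 0.844 and 0.888), and 0.12 and 0.15 in the 6 kidneys. The list's median log2 fold change was -0.05, and -0.03 in the 6 kidneys.

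*Cldn16*, the calcium and magnesium pore of the thick ascending limb (chr16:26463135-26482765, GRCm38, plus strand), had 5.78, 4.74, 7.93 and 7.44 CPM in controls. In mutants it had 14.4, 10.4, 6.39 and 8.08 CPM. In mutants, 3 of 4 kidneys were above the highest control, and mutant 3 lay within the control range. On the TPM scale 2 of 4 exceeded the highest control, with 5.6 to 10.1 TPM in controls and 17.5, 13.0, 7.78 and 8.74 in mutants. Means were 6.47 ± 1.47 and 9.82 ± 3.46 (SD, n = 4 each). The log2 fold change was 0.60 ± 0.264 (SE), with a 95% interval of 0.01 to 1.19, an unadjusted edgeR p of 0.0475 and an FDR of 0.777. The exact permutation test of CPM gave p = 0.114. In the 6 kidneys all mutants exceeded both controls, as did 10.1% of all genes, and the log2 fold change was 0.91 ± 0.324 (SE) with an unadjusted edgeR p of 0.0211 and an FDR of 0.366. Without mutant 1, the highest kidney, the log2 fold change over the remaining 7 was 0.36 with an unadjusted edgeR p of 0.164. Leaving out control 1, 2 or 4 or mutant 2 gave unadjusted edgeR p values of 0.0501 to 0.117.

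Mutant 1 also had the highest sum of 3 stromal markers, 305 CPM, against 96.1 to 219 in controls and 120 to 195 in the other mutants, and the part of stroma in the *Cldn16* values was not tested. Thick ascending limb markers (*Slc12a1*, *Kcnj1* and *Bsnd*) summed to 767 to 1407 CPM in controls and 912 to 1401 in mutants. Relative to them, *Cldn16* differed by 0.46 on the log2 TPM scale, with 1 of 4 mutants in the control range and p = 0.0571 in an exact permutation test (0.457 adjusted over the 8 ratios). The difference was 0.40 in the 6 kidneys and 0.23 without mutant 1. The same ratio taken on CPM differed by 0.56, with p = 0.0286 in that exact test. For *Cldn19*, *Cldn10* and *Umod* over the limb markers, differences were 0.13, -0.12 and -0.02 in 8 kidneys, with exact permutation p of 0.514, 0.743 and 0.857, and 0.21, -0.63 and -0.28 in the 6 kidneys. The *Cldn10* total also holds a proximal tubule form, so its ratio does not follow the limb form alone. In the 6 kidneys *Cldn10* itself had a log2 fold change of -0.24, and *Slc12a1*, *Kcnj1* and *Bsnd* had 0.50, 0.24 and 0.31.

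*Cldn19* (chr4:119255414-119262438, plus strand) encodes the obligate partner of claudin-16 in the pore. It had 38.2, 27.9, 60.1 and 46.9 CPM in controls and 40.1, 49.1, 51.1 and 47.5 in mutants. The controls spanned the mutants on both sides, with controls 1 and 2 lowest and control 3 highest. Means were 43.3 ± 13.7 and 47.0 ± 4.83 (SD, n = 4 each). The log2 fold change was 0.12, with a 95% interval of -0.34 to 0.57 (edgeR FDR 0.949). Set against the 2 controls with Y-linked reads alone it was 0.52 ± 0.149 (SE), with an unadjusted edgeR p of 0.0075 and an FDR of 0.288. The value therefore turned on which controls entered. *Cldn16* TPM divided by *Cldn19* TPM was 0.224 to 0.351 in controls and 0.661, 0.371, 0.210 and 0.296 in mutants 1 to 4, so the partners' ratio overlapped between groups.

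**Figure D2:**
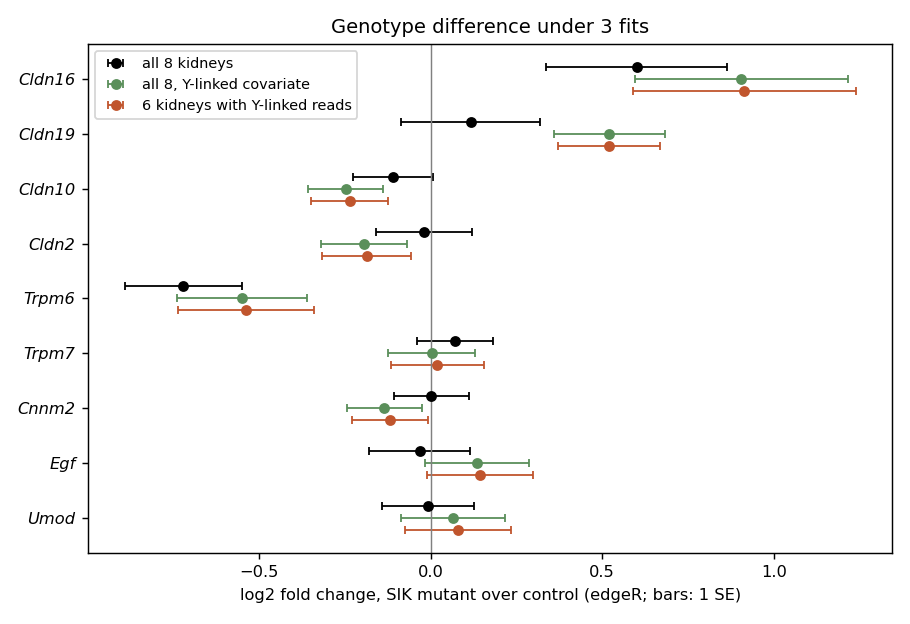
Log2 fold changes of the 9 tested genes, SIK mutant over control, from 3 edgeR fits. The x axis is log2 fold change, bars are 1 SE, and colours stand for all 8 kidneys, all 8 with a Y-linked covariate, and the 6 kidneys with Y-linked reads. *Trpm6* lies left of 0 and *Cldn16* right of 0 in all 3, whereas *Cldn19* moves from 0.12 to 0.52 when the controls without Y-linked reads are set apart.

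*Cldn14* (chr16:93919031-94008837, minus strand), the inhibitor of that pore, was at the edge of detection. Controls held 0, 0, 1 and 2 expected counts and mutants 0, 0, 1 and 0, all under 3 counts, or 0.263 to 0.304 CPM. No difference in *Cldn14* was detectable at this depth, and a level below that limit in either group is possible.

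*Cldn10* (chr14:118787908-118875489, plus strand), whose 2 main forms are a sodium pore of the thick ascending limb and an anion pore of the proximal tubule, cannot be split into forms in gene-level files. It had 228, 232, 182 and 196 CPM in controls and 180, 193, 179 and 225 in mutants. Mutants 1 and 3 were under the lowest control. By edgeR the log2 change was -0.11, with a 95% interval of -0.37 to 0.15 (edgeR FDR 0.917), and -0.24 in the 6 kidneys (unadjusted edgeR p 0.0638). *Cldn2* (chrX:139800828-139811386, plus strand), the proximal tubule pore, had 607, 608, 476 and 457 CPM in controls and 519, 439, 564 and 597 in mutants. The controls formed 2 pairs, with Y-linked reads at a mean of 607 and without at 466, and the mutants lay below or between them. Over all 8 kidneys the log2 fold change was -0.02, with a 95% interval of -0.33 to 0.29 (edgeR FDR 0.989), and -0.19 in the 6 kidneys. Relative to proximal tubule markers (*Lrp2*, *Cubn* and *Hnf4a*), *Cldn2* differed by 0.01 on the log2 TPM scale (p = 0.971, exact permutation test), and by -0.22 in the 6 kidneys.

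Of 18 other claudins, 10 passed the filter, and 0 had even an unadjusted edgeR p under 0.05, against 6.36% of all genes. In the 6 kidneys 1 claudin did, against 11.1% of all genes. It was *Cldn4*, named after its values were seen, with a log2 fold change of 0.49 (edgeR FDR 0.404). The 8 left out reached at most 34 counts in any kidney. The named ones by smallest p were *Cldn6* (0.74, FDR 0.812) and *Cldn18* (0.85, FDR 0.893) among those with higher values and *Cldn5*, an endothelial claudin (-0.37, FDR 0.863), and *Cldn12* (-0.13, FDR 0.864) among those with lower ones, each a log2 fold change by edgeR. Restricted to the 6 kidneys, *Cldn6* had 0.53 and *Cldn12* -0.05, while *Cldn18* and *Cldn5* turned to -0.04 and 0.16. The list's median was -0.05, and 0.18 in the 6 kidneys. Among 16 scaffold and partner genes of the tight junction, 0 passed the FDR and 1 had an unadjusted p under 0.05, against 6.36% of all genes. In the 6 kidneys 2 others did, both higher, against 11.1% of all genes. Both counts were near those shares. The gene at that p in all 8 kidneys was *Marveld3*, a transmembrane junction protein, with means of 17.0 CPM in controls and 12.7 in mutants. Its groups did not overlap, as in 4.03% of all genes, and its log2 fold change was -0.42 (edgeR FDR 0.713). In the 6 kidneys its log2 fold change was -0.19. *Mpdz* and *Ildr1* had the smallest p among higher values, at 0.23 (FDR 0.873) and 0.14 (FDR 0.909), and *Pard6b* followed *Marveld3* among lower ones at -0.11 (FDR 0.878). Their 6-kidney values were 0.05, 0.35 and -0.08. The list's median was 0.04, and 0.03 in the 6 kidneys. The 2 genes higher in the 6 kidneys were *Ildr1* and *Tjp1* (0.46, edgeR FDR 0.321), the latter named after its values were seen.

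*Umod* (chr7:119462711-119479282, minus strand) was the most abundant of the 10. Its CPM was 2576, 2269, 2660 and 2715 in controls and 2530, 3134, 2212 and 2299 in mutants. Mutant 2 exceeded all controls and mutant 3 was below all of them. The log2 fold change was -0.01, with a 95% interval of -0.31 to 0.29 (edgeR FDR 0.995), and 0.08 in the 6 kidneys. *Egf* (chr3:129677565-129755316, minus strand) had 640, 689, 853 and 799 CPM in controls and 711, 873, 754 and 578 in mutants. The mutants spanned the controls on both sides, with a log2 fold change of -0.03, a 95% interval of -0.36 to 0.30 (edgeR FDR 0.986) and 0.14 in the 6 kidneys. In both genes, controls 3 and 4 were the 2 highest controls. *Egf* TPM divided by *Umod* TPM overlapped between groups, at 0.175 to 0.223 in controls and 0.173 to 0.226 in mutants. Of 14 genes of EGF ligands, receptors and processing, 10 were tested and 0 had an unadjusted edgeR p under 0.05, against 6.36% of all genes. *Egfr*, the receptor through which EGF acts on TRPM6, had a log2 fold change of 0.25 (FDR 0.841), *Adam17*, a sheddase of EGF ligands, 0.12 (FDR 0.852) and *Erbb2* -0.06 (FDR 0.948). Values in the 6 kidneys were 0.10, 0.15 and 0.06, and 2 of the 10 had an unadjusted edgeR p under 0.05, against 11.1% of all genes. The 2 were *Erbb4*, higher at 0.61, and *Erbb3*, lower at -0.24, both named after their values were seen. The list's median was 0.06, and 0.11 in the 6 kidneys.

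**Figure D3:**
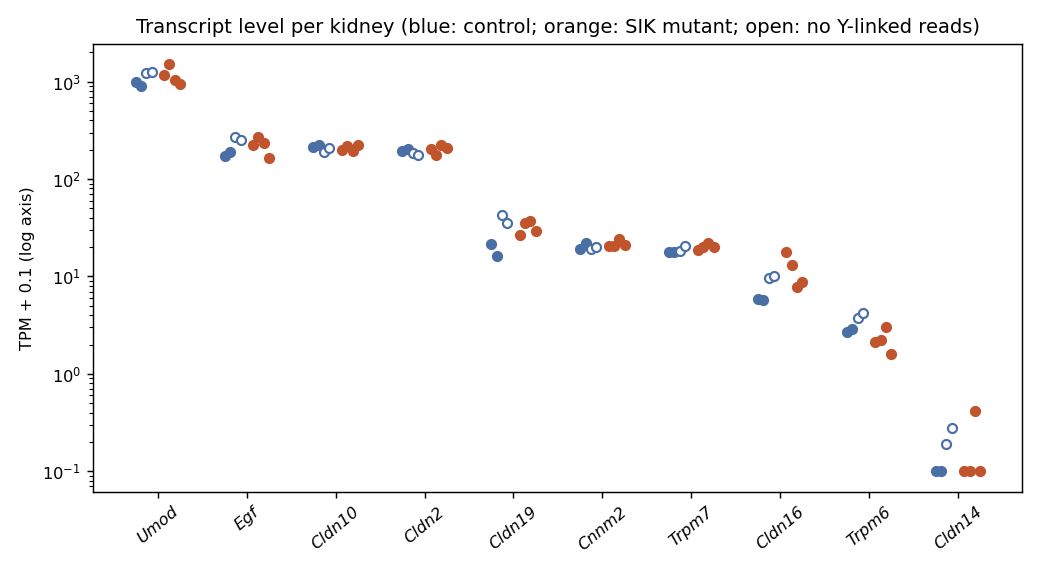
Transcript level of each gene in each kidney. The y axis is TPM + 0.1 on a log scale, the x axis orders the genes by control mean, and points are kidneys (blue control, orange SIK mutant, open without Y-linked reads). Control means run from 1090 TPM for *Umod* to 0.0675 TPM for *Cldn14*, and the order by mean is the same in mutants.

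Between genes, levels were compared per length, in TPM. In controls the means were 1090 TPM for *Umod*, 221 for *Egf*, 208 for *Cldn10* and 190 for *Cldn2*, then 28.9 for *Cldn19*, 19.99 for *Cnnm2*, 18.6 for *Trpm7*, 7.73 for *Cldn16*, 3.30 for *Trpm6* and 0.0675 for *Cldn14*. Neighbours overlapped between *Egf*, *Cldn10* and *Cldn2*, and between *Cldn19*, *Cnnm2* and *Trpm7*. The other neighbours in the order did not overlap. The mutants had the same order of means, with *Cldn19* clear of *Cnnm2* there. The calcium and magnesium pore thus had more *Cldn19* than *Cldn16* transcript in all 8 kidneys, and *Trpm7* exceeded *Trpm6* in all 8, while *Cldn14* had the lowest mean level.

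The salt transport and calcium sensing genes of the thick ascending limb showed how far the choice of controls reached. Of 12 such genes, 0 had an unadjusted edgeR p under 0.05 in all 8 kidneys (6.36% of all genes), and the list's median log2 fold change was -0.08. In the 6 kidneys 6 were higher and 1 was lower at that p, against 6.4% and 4.74% of all genes, with a median of 0.20 beside 0.01 over all genes, and 0 passed the FDR. *Slc12a1*, the furosemide-sensitive cotransporter, had a log2 fold change of 0.11 in 8 kidneys and 0.50 in 6. The potassium channel gene *Kcnj1* went from -0.07 to 0.24, and the chloride channel subunit gene *Bsnd* from -0.12 to 0.31. *Casr*, the calcium-sensing receptor, had 23.7 ± 4.19 CPM in controls and 31.7 ± 9.59 in mutants (SD, n = 4 each), with 0.42 (edgeR FDR 0.794) and 0.62. *Oxsr1*, a kinase upstream of the cotransporter, had 0.17 (FDR 0.794) and 0.14, and *Stk39*, a related kinase, had -0.13 (FDR 0.910) and 0.02. Limb markers summed to 767 and 897 CPM in controls 2 and 1 and to 1229 and 1407 in controls 4 and 3. *Cldn16*, *Cldn19*, *Slc12a1*, *Kcnj1* and *Bsnd* were all lowest in controls 1 and 2 among controls, which were also the kidneys with the least adipocyte transcript. Y-linked reads and adipocyte transcripts divided the controls in the same way, so the 2 cannot be told apart here, and their part in these values was not tested.

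**Figure D4:**
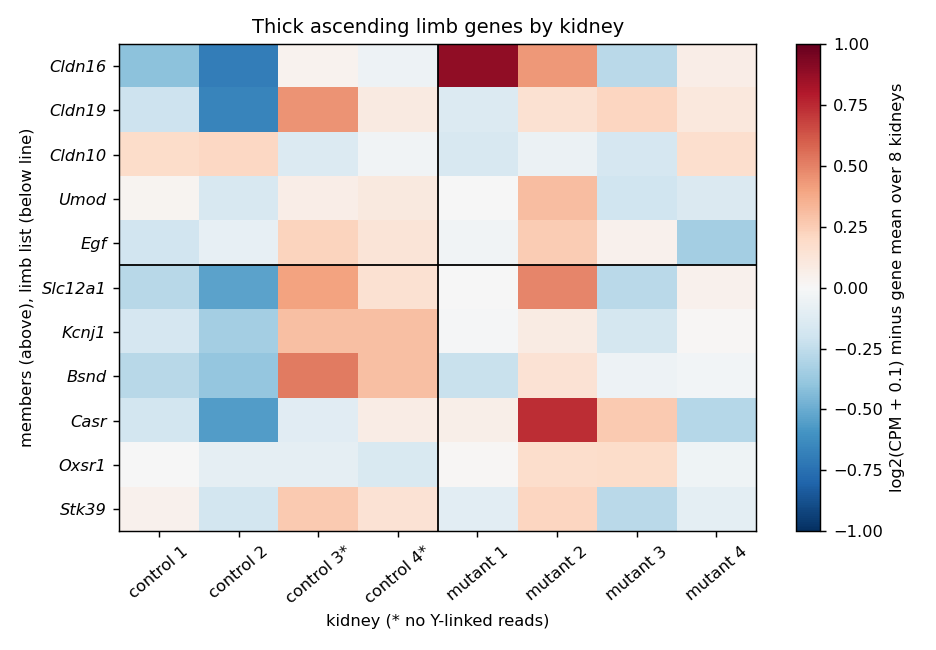
Thick ascending limb genes, with *Egf* added, by kidney. In the text *Egf* is scaled to distal convoluted tubule markers instead. Rows are 5 of the 10 genes and, below the line, the 6 genes of the thick ascending limb list named in the text, columns are kidneys (asterisks mark controls without Y-linked reads), and colour is log2(CPM + 0.1) minus the gene's mean over 8 kidneys, cut at -1 and 1. *Cldn16*, *Cldn19* and *Slc12a1* are lowest in control 2 (4.74, 27.9 and 527 CPM) and *Cldn16* is highest in mutant 1 (14.4 CPM).

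The genes whose values over the 8 kidneys were nearest to those of *Trpm6*, by root mean square difference in centred log2 CPM, were *Steap1* at 0.103, *Slc34a3* at 0.146 and *Defb1* at 0.159, against a median of 0.481 over all tested genes. *Slc34a3* encodes a sodium-phosphate cotransporter of the proximal tubule. It had 76.0, 85.1, 76.4 and 98.6 CPM in controls and 55.5, 46.9, 65.2 and 48.0 in mutants. The nearest genes were picked by their values in these same kidneys, genotype difference included. A like difference between the groups is therefore built into the choice and is no separate result. *Defb1*, a beta-defensin gene, had 212 to 326 CPM in controls and 120 to 166 in mutants. Nearest to *Cldn16* were *Fstl1* at 0.161, *Dpysl3* at 0.162 and *Kif23* at 0.165, against a median of 0.511. By the same choice, *Fstl1*, *Dpysl3* and *Kif23* were each highest in mutant 1, as *Cldn16* was, at 63.6, 15.5 and 4.59 CPM.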

How the data were processed

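Whole-kidney RNA from 4 control and 4 SIK mutant mice was sequenced on a BGISEQ500 instrument. The authors quantified each kidney separately with RSEM 1.3.0 (STAR 2.7.2b, FastQC, DESeq2 and mm10 are also in the submitters' processing notes). The deposited expected counts are unnormalised read numbers per gene as RSEM estimated them. The deposited TPM values are scaled to transcript length and library total. The deposited posterior SD of counts was at most 0.000555% for these 10 genes. Gene lengths in the deposited files are weighted by transcript abundance. Whether strand was used is not given in the sources used here, so reads of *Cldn19*, *Egf* and *Umod*, which overlap antisense genes, and of *Trpm6*, *Trpm7* and *Cldn10*, which overlap a small RNA, a pseudogene and a ribosomal RNA gene on the other strand, cannot be told from reads of those genes.

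Of 55401 genes, 54349 matched GENCODE M21 with their version and 55141 without it. Expected counts were rounded and tested with edgeR 4.0.16 in R 4.3.3 (quasi-likelihood F test, TMM, filterByExpr, 14326 genes, no covariate, Benjamini-Hochberg FDR threshold 0.05). CPM used TMM factors, and intervals used the t distribution of each fit. TPM ratios used a pseudocount of 0.1 and 2-sided exact permutation tests. The scripts were tested on simulated data. Alternatives were DESeq2 1.42.0, RLE size factors, no filter, limma 3.58.1 on log2 TPM, a block on replicate number, a Y-linked covariate, the 6 kidneys with Y-linked reads, and each kidney left out.

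The members, gene lists and marker lists were chosen with earlier results of these data known. Named from each list were the 2 tested genes higher and the 2 lower in mutants with the smallest edgeR p, and the 3 nearest genes for members with an unadjusted p under 0.05. A gene that this rule selects from the thick ascending limb list is not reported here. For the *Ptp4a1* symbol, which has 2 gene identifiers, the one with more counts was used. The ratio of *Cldn14* to *Cldn16* and that of *Cldn14* to its segment markers were not computed because *Cldn14* was under 3 counts in every kidney. Protein sequences were not used here.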

Additional observations from a re-analysis of the deposited data

How the results depend on the processing

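Over all genes, 0 were called by edgeR (911 at an unadjusted p under 0.05), 67 by DESeq2, 9 without a filter, 4 and 5 by limma on log2(TPM + 1) and log2(TPM + 0.1), 15 with the Y-linked covariate, 21 in the 6 kidneys, 188 by DESeq2 in those 6 (an alternative chosen after seeing the data) and 0 to 1 when a kidney was left out. The TPM scale moved the median log2 fold change of all genes to 0.09 and 0.11. DESeq2 called 1 of the 10 genes, *Trpm6*, and left-out kidneys left 0. *Trpm6* kept its sign under all 17 alternatives (-0.88 to -0.45, FDR 0.0499 to 0.998), as did *Cldn16* (0.36 to 0.91, FDR 0.217 to 0.998) and *Cldn10*. Genes at an unadjusted p under 0.05 numbered 2, but 1 in both limma fits, 4 with the Y-linked covariate, which adds *Cldn19* and *Cldn10*, and 1 to 2 when a kidney was left out. Without control 1, 2 or 4 or mutant 1 or 2 *Cldn16* missed that p.

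The labels do not say whether equal numbers pair the kidneys, and the values below cannot settle it. The paper used Cre-negative littermates as controls, but which kidneys shared a litter is not given. Correlations of deviations between same-numbered kidneys ran from -0.344 to 0.0631, and 2 of 8 kidneys correlated best with their own number. With the replicate block 1 gene had an unadjusted p under 0.05 and 0 of all genes were called.

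Signs turned for genes near 0. In the limma fits *Cldn2* became 0.0921 and 0.0925, *Egf* 0.0129 and 0.0129, and *Umod* 0.0887 and 0.0888. With the Y-linked covariate, the 6 kidneys and DESeq2 on them, *Cnnm2* became -0.134, -0.118 and -0.121, *Egf* 0.135, 0.145 and 0.142, and *Umod* 0.0658, 0.0804 and 0.0771. With a kidney left out, the ranges were -0.0446 to 0.318 for *Cldn19*, -0.0879 to 0.0612 for *Cldn2*, -0.0342 to 0.124 for *Trpm7*, -0.0686 to 0.069 for *Cnnm2*, -0.129 to 0.0645 for *Egf* and -0.123 to 0.055 for *Umod*. Among ratios to segment markers they were -0.337 to 0.0914 for *Cldn10*, -0.141 to 0.0623 for *Umod*, 0.228 to 0.591 for *Cldn16*, -0.421 to -0.129 for *Trpm6* and -0.0821 to 0.0975 for *Cldn2*. *Cldn2* over its markers was -0.223 in the 6 kidneys, and *Cldn16* over its markers was 0.557 on CPM (exact permutation p 0.0286). The cause was not tested. The 5 list counts stayed at 0 calls. With 2 controls in the 6 kidneys, an exact test cannot go below 0.133.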
